A study of Homo sapiens with 4 samples.

Results

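LPS-exposed microglia-like cells were divided by a score over 14 genes, and the cells described here are those with transcripts of several of TIFAB, LTB, ADGRE1, LILRB2, S100A12, FEZ1 and CMKLR1 and of few of DNAAF1, C2orf88, KANK1, CLDN1, EDN1, TNFSF15 and ITGB8. The score was the number of the first 7 genes with at least 1 UMI (a unique molecular identifier, 1 captured transcript) in the cell, less the number of the other 7, and a cell with a score of 2 or more was a member. Members were thus chosen by the measured UMIs of these 14 genes. There were 3981 members among 8762 LPS-exposed cells (45.4%) and among 16937 filtered cells of the series (23.5%). The remaining 4781 LPS-exposed cells, called the other cells, are the comparison throughout. The score used the RNA of the same cells, so differences between members and other cells are descriptions and carry no test.

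The cells came from 12 cultures of the human embryonic stem cell line H9. Monocyte-like cells shed by embryoid bodies grown with M-CSF and IL-3 were kept for 7 days in a serum-free medium with TGF-β, IL-34 and cholesterol, which gives microglia-like cells. The SemaLPS cultures received 2 µM semagacestat for 22 h and 200 ng/mL LPS for the last 6 h, and the LPS cultures received DMSO, the solvent, with the same LPS. The Sema cultures received semagacestat with PBS in place of LPS, and the Ctrl cultures received DMSO and PBS. There were 3 cultures per condition. All cells were detached with actinomycin D, which blocks transcription, stained with 1 hashtag antibody per culture, pooled, and divided into 2 libraries. With 1 line throughout, p-values measure the spread between cultures and not between people.

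Lipopolysaccharide is sensed by TLR4 with CD14 and MD-2, and through MyD88, TRAF6 and NF-κB it switches on cytokines and chemokines in monocytes, macrophages and microglia. Classical monocytes carry S100A8, S100A9 and S100A12, small calcium-binding proteins that are released as alarmins. Genes carried by microglia include complement C1q, AIF1 (IBA1), P2RY13 and CX3CR1, and they are not read here as exclusive to microglia. Semagacestat inhibits γ-secretase, the membrane protease that cuts the stubs of APP, Notch receptors, TREM2 and many other type I membrane proteins.

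Promoters of 4 genes are shown because the results turn on them. LTB and S100A12 are among the genes that choose the members, S100A9 is a neighbour of S100A12 that the score did not use, and DUSP1 is the gene with the clearest change under semagacestat. Each line holds the 250 bases before the annotated start, 5′ to 3′ on the gene's own strand, from RefSeq on GRCh38.p14. Capitals mark matches to 5 motifs: the TATA box (TATAAA, gene strand only), AP-1 (TGANTCA), CRE (TGACGTCA), C/EBP (TTGCNNAA) and the 10-base NF-κB consensus, the last 4 searched on both strands.
LTB (chr6:31582426-31582675, minus strand): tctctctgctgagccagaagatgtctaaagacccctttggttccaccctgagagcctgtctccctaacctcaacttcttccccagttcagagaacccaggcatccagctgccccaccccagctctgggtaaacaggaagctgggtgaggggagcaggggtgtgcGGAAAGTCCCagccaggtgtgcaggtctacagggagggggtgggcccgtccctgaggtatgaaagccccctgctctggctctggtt
S100A12 (chr1:153375622-153375871, minus strand): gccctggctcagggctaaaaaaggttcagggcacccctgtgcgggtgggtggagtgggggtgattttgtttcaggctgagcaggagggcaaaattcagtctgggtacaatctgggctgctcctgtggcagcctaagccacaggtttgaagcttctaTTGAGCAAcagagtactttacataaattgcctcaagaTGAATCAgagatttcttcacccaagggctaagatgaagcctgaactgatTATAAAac
S100A9 (chr1:153357604-153357853, plus strand): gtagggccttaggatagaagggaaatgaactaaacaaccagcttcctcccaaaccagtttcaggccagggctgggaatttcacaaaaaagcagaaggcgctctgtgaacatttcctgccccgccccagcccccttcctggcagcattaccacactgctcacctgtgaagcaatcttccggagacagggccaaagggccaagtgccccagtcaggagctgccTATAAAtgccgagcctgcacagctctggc
DUSP1 (chr5:172771196-172771445, minus strand): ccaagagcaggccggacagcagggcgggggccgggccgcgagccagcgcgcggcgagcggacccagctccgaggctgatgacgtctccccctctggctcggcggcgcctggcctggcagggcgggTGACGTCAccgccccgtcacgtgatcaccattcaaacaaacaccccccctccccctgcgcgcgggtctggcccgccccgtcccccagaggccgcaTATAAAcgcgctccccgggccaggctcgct

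The LTB window held an NF-κB match whose first base lies 86 bases upstream of the start. The S100A12 window held an AP-1 match 57 bases, a C/EBP match 94 bases and a TATAAA match 8 bases upstream. By the coordinates of S100A12 given further below, the gene starts inside this window, so its TATAAA match lies downstream of that start. S100A9 and DUSP1 held TATAAA matches 29 and 30 bases upstream. DUSP1 held a full CRE 125 bases upstream. Among 27305 RefSeq promoters of the same window, an NF-κB match was found in 5.05%, AP-1 in 6.60%, C/EBP in 9.13%, CRE in 1.77% and a forward TATA box in 7.17%. Of the 7 genes that add to the score, all 7 had a window in the table, 3 held a C/EBP match (S100A12, TIFAB and ADGRE1) and 1 an NF-κB match. Of the 7 genes that subtract, 5 had a window, and 1 of these, TNFSF15, held a C/EBP and an AP-1 match. A match of letters is a description of the window and not a binding site.

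The 2 libraries held 28943 called barcodes (14535 and 14408, of which 91 sequences occur in both), and 24662 had a top hashtag of at least 30 UMIs and at least 3 times the next. A floor of 1000 genes and a ceiling of 10% of UMIs from mitochondrial genes left the 16937 cells, 9081 and 7856 by library. Members had a median of 30267 UMIs and 4856 genes, against 32708 UMIs and 5096 genes in the other cells. The median mitochondrial share was 7.97% in members and 8.01% in the other cells. Summed per culture, the members gave 15882491 to 27889380 UMIs and the other cells 22211036 to 33468831 UMIs. Median depth ran from 35520 UMIs in cells scoring −7 to −3 to 30818 UMIs in cells scoring 5 to 7. In Ctrl-1, by contrast, the cells that reached a score of 2 had a median of 30933 UMIs and the rest 28424.5 UMIs. The gap was smaller in Ctrl-2 (28528.5 against 28346.5 UMIs) and Ctrl-3 (29395 against 28399 UMIs). The part of depth in the score was not tested.

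Members were a range of a continuous score and not a separate group. Scores had a single peak, with 1393 cells at 2, just inside the limit, and 1375 cells at 1, just outside it. The most common member had 4 of the 7 added genes (1231 cells, 30.9%) or 5 (28.1%). None of the 7 subtracted genes was seen in 28.1% of members, and 1 was seen in 38.7%.

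The genes that choose the members were detected as follows. TIFAB, whose protein restrains TIFA and TRAF6 signalling in mouse blood cells, had a UMI in 68.1% of members and 35.1% of the other cells, and in 7.39% of Ctrl cells. LTB, the membrane-bound lymphotoxin β of the TNF family, was seen in 48.3% of members, 21.9% of the other cells and 15.8% of Ctrl cells. S100A12, the calgranulin that binds the receptor RAGE, was seen in 34.5% of members, 10.6% of the other cells and 3.83% of Ctrl cells. Fewer members had a UMI of LTB, or of S100A12, than had none. ADGRE1, the human counterpart of mouse F4/80, was detected in 51.1% of members and 16.0% of the other cells. LILRB2, an inhibitory receptor for MHC class I, was in 94.8% of members and 66.8% of the other cells, and was the most widely detected of the 7. CMKLR1, the chemerin receptor, was in 82.9% of members and 47.4% of the other cells, and FEZ1, a kinesin adaptor, in 54.1% of members and 27.6% of the other cells. All 7 were seen in fewer Ctrl cells than other cells; the Ctrl cells had a median of 28548 UMIs, and no cell type that should lack these genes was in the cultures.

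The subtracted genes ran the other way by construction. KANK1, a regulator of actin at adhesions, was detected in 13.7% of members and 48.7% of the other cells. CLDN1, a tight junction protein, was in 29.5% of members and 62.5% of the other cells, and EDN1, the precursor of the vasoconstrictor endothelin-1, in 34.3% of members and 62.6% of the other cells. TNFSF15, the cytokine TL1A, was in 12.2% of members and 32.7% of the other cells. DNAAF1 (dynein arm assembly) was in 12.5% of members and 33.6% of the other cells, ITGB8 (an integrin that activates latent TGF-β) in 10.4% of members and 27.4% of the other cells, and C2orf88 in 3.92% of members and 24.7% of the other cells.

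Because every rule gene was used in the score, each was also read after rescoring the cells with the other 13 genes alone. With its own transcripts left out of the score, each of the 7 added genes was still higher in members than in the other cells in 6 of 6 cultures. The median log2 ratio was 1.16 for ADGRE1, 0.94 for LILRB2, 0.88 for LTB, 0.88 for CMKLR1, 0.86 for S100A12, 0.85 for TIFAB and 0.53 for FEZ1. Each subtracted gene was lower in 6 of 6 cultures, with median log2 ratios of −1.63 for TNFSF15, −1.58 for C2orf88, −1.17 for KANK1, −1.14 for CLDN1, −0.93 for DNAAF1, −0.65 for ITGB8 and −0.54 for EDN1. These ratios are a description, since the 14 genes were picked for this pattern in these same cells.

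The members' share of cells was read in each culture, where members are cells of 1 culture and the culture is the replicate. Members were 56.8% (95% Wilson interval 54.3 to 59.2), 45.3% (43.0 to 47.6) and 44.7% (42.1 to 47.4) of cells in SemaLPS-1, -2 and -3, and 46.1% (43.5 to 48.6), 37.4% (34.8 to 40.0) and 40.9% (38.3 to 43.6) in LPS-1, -2 and -3. The intervals cover counting error only. The mean was 48.9% ± 6.80 in SemaLPS cultures and 41.4% ± 4.38 in LPS cultures (SD, n = 3 each), a difference of 7.48 percentage points. The groups overlapped, and a two-sided exact permutation test gave p = 0.3, where 0.1 is the smallest that 3 against 3 allows. Within each replicate number the share was higher with semagacestat, by 10.7, 7.91 and 3.81 points, and the paired exact permutation test gave p = 0.25, the smallest that 3 pairs allow. The difference was 3.55 points without SemaLPS-1, so this 1 culture carries much of it. After thinning each cell to 10000 UMIs, which leaves out 50 members and 126 other cells that were shallower, the shares were 37.0% ± 6.54 in SemaLPS and 31.4% ± 2.93 in LPS cultures (SD, n = 3 each).

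Both sides of the score were read between the conditions, with no test. SemaLPS cells had on average 3.28 ± 0.298 of the 7 added genes and LPS cells 3.10 ± 0.2503 (SD over 3 cultures each), with overlapping cultures and a higher value with semagacestat in each of 3 pairs. Of the 7 subtracted genes, SemaLPS cells had 2.00 ± 0.110 and LPS cells 2.25 ± 0.0443 (SD over 3 cultures each), and no SemaLPS culture reached the level of an LPS culture. Without LPS few cells met the score: 18.7% ± 0.481 of Sema cells and 18.2% ± 0.711 of Ctrl cells (SD, n = 3 each), and 5.97% and 6.04% after thinning.

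**Figure D1:**
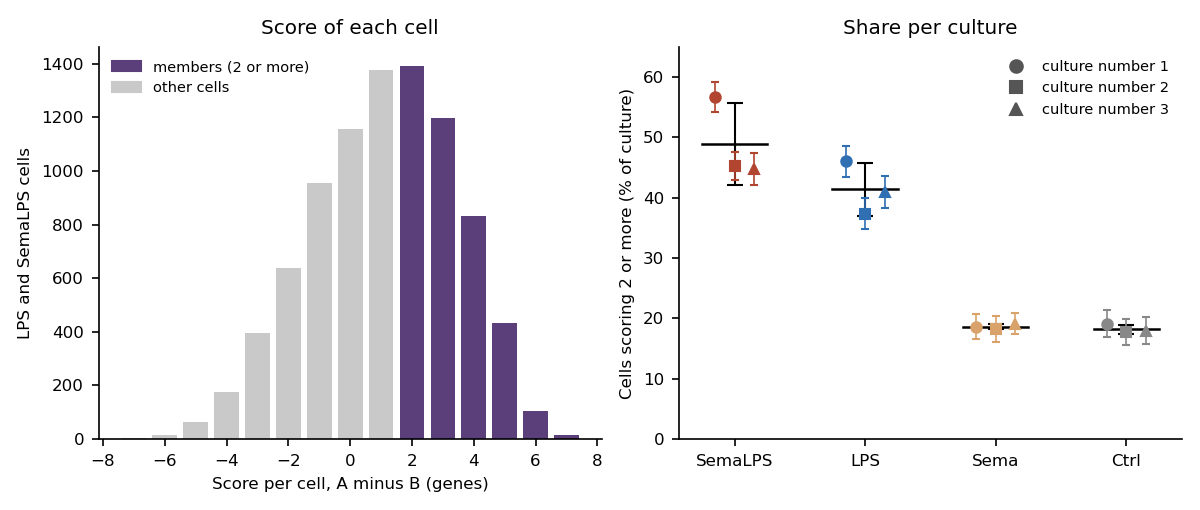
Left, number of LPS and SemaLPS cells (y axis) at each score (x axis), members in dark bars; right, percent of each culture's cells with a score of 2 or more, with points for cultures and their 95% Wilson intervals, and black lines for the mean and SD of 3 cultures. The SemaLPS cultures lie at 44.7 to 56.8% and the LPS cultures at 37.4 to 46.1%, with overlap, and the scores have 1 peak, with 1393 cells at 2 and 1375 cells at 1.

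Members were spread over several transcriptional states. When the LPS-exposed cells were clustered without the 14 rule genes, 6 clusters were found and none was made of members alone. Members made up 78.0% of the cluster led by AIF1, CD74, HLA-DRA and C1QA (64.2 to 84.3% over the 6 cultures), genes of antigen presentation and complement. They were 57.0% of the cluster led by CXCL8, NAMPT and S100A9 (52.5 to 65.6%), and these clusters held 30.8% and 41.7% of all members. They were 60.6% of a cluster led by G2 and M phase genes such as TOP2A and MKI67, and 47.1% of one led by S phase genes such as PCNA. Members were rare in the cluster led by CD9, MMP7, OLR1 and LIPA, at 10.5% (9.67 to 13.8%), and made up 24.5% of the one led by CCL4L2, CCL4, SPP1 and CD83. The cluster led by CD9 held 4.87% of members and 34.7% of the other cells.

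Outside the rule genes, members had more S100A8, S100A9, FCGBP, GAPT and HAMP transcripts than the other cells, and far fewer of MMP7, RGCC, GAL and TIMP3. Levels are CPM (a gene's UMIs scaled to equal totals) in each culture's summed cells, adjusted with edgeR's trimmed mean of M-values (TMM). Ratios are log2 of members over other cells in the same culture with 1 CPM added to both. In such sums, more cells with a transcript and more transcripts per cell cannot be told apart. The ratios after rescoring, above, were taken on CPM without TMM. Among 13911 genes measured, 102 were more than 1.5-fold higher in members in all 6 cultures (0.733%) and 201 more than 1.5-fold lower (1.44%). Without SemaLPS-1, 171 were higher and 230 lower. The median ratio over all genes was −0.00.

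The calcium-binding alarmins S100A8 and S100A9 stood high in members. Of 7 measured genes in the list of S100 proteins and calgranulin partners, 3 were higher and 1 lower in all 6 cultures. The list's median log2 ratio was 0.13, and 21.8% of all genes were higher and 20.4% lower in all 6 cultures. S100A8 had 315, 356 and 427 CPM in members (lowest, median and highest of 6 cultures), 120, 152 and 167 CPM in the other cells and 47.1 CPM in Ctrl cells, a median log2 ratio of 1.32. Its partner S100A9 had 1151, 1284 and 1333 CPM in members, 515, 558 and 583 CPM in the other cells and 174 CPM in Ctrl cells, a ratio of 1.1996. Members and other cells did not overlap for either gene, and both genes lie with S100A12 within the S100 cluster of chromosome 1 (S100A9 at 153357854 to 153361027, S100A12 at 153373706 to 153375649 and S100A8 at 153390032 to 153391188, GRCh38).

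Among the 15 genes highest in members at 20 CPM or more, the largest ratios belonged to FCGBP, GAPT and HAMP. FCGBP, an IgG Fc-binding mucin-like protein, had 96.0, 137 and 159 CPM in members and 39.7, 47.2 and 50.3 CPM in the other cells, a log2 ratio of 1.65. GAPT, a membrane adaptor of blood cells, had 50.2, 54.9 and 73.2 CPM in members and 15.2, 17.7 and 32.3 CPM in the other cells (1.62). HAMP, which encodes the iron hormone hepcidin, had 25.5, 30.5 and 37.95 CPM in members and 7.01, 10.95 and 14.4 CPM in the other cells (1.46). In each of these the lowest member culture was above the highest culture of other cells. MPEG1, the pore-forming perforin-2 of phagosomes, had a log2 ratio of 1.31, NAIP, the inflammasome sensor of bacterial flagellin and secretion systems, 1.21, LRRK2, a kinase linked to Parkinson disease, 1.14, and FYB1, an adaptor of immune receptor signalling, 1.02. C12orf75 (1.24) and the mitophagy receptor BNIP3 (1.10) were also among the 15.

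For some of these genes the members stood close to the Ctrl cells, and the other cells were lower. MS4A6A, a membrane protein at an Alzheimer risk locus, had 139, 157 and 173 CPM in members, 48.4, 57.1 and 85.3 CPM in the other cells and a mean of 160 CPM in Ctrl cells, a log2 ratio of 1.41. NAIP had a median of 62.9 CPM in members, 29.5 CPM in the other cells and a mean of 70.6 CPM in Ctrl cells. MAF, a transcription factor of resident macrophages, had 162, 170 and 205 CPM in members and 68.3, 79.6 and 96.4 CPM in the other cells (1.22), below the 304 CPM of Ctrl cells.

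The 15 genes lowest in members were of mixed kinds. MMP7, matrilysin, had 24.2, 53.2 and 57.4 CPM in members and 308, 422 and 584 CPM in the other cells, a log2 ratio of −3.27, with 184 CPM in Ctrl cells. RGCC, a regulator of the cell cycle, had 11.6, 13.5 and 23.6 CPM in members, 56.8, 84.7 and 101 CPM in the other cells and 304 CPM in Ctrl cells (−2.38). TIMP3, a matrix-bound inhibitor of metalloproteases, had 15.6, 24.7 and 37.4 CPM in members and 104, 124 and 188 CPM in the other cells (−2.30). The member and other ranges were separate for all 3 genes, and members lay below Ctrl cells too. The neuropeptide galanin (GAL, −2.35), GLDN (−2.17), the CGRP receptor partner RAMP1 (−2.01), the intermediate filament NES (−1.82), EMP1 (−1.81), the glypican GPC4 (−1.71), the actin-severing SCIN (−1.54) and CCL1 (−1.53) were also among the 15. IBSP, bone sialoprotein, had 23.4, 43.3 and 73.4 CPM in members and 88.1, 144 and 189 CPM in the other cells (−1.69). The lipid-sensing nuclear receptor PPARG had 9.82, 11.6 and 12.1 CPM in members and 28.0, 31.7 and 35.7 CPM in the other cells (−1.44).

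**Figure D2:**
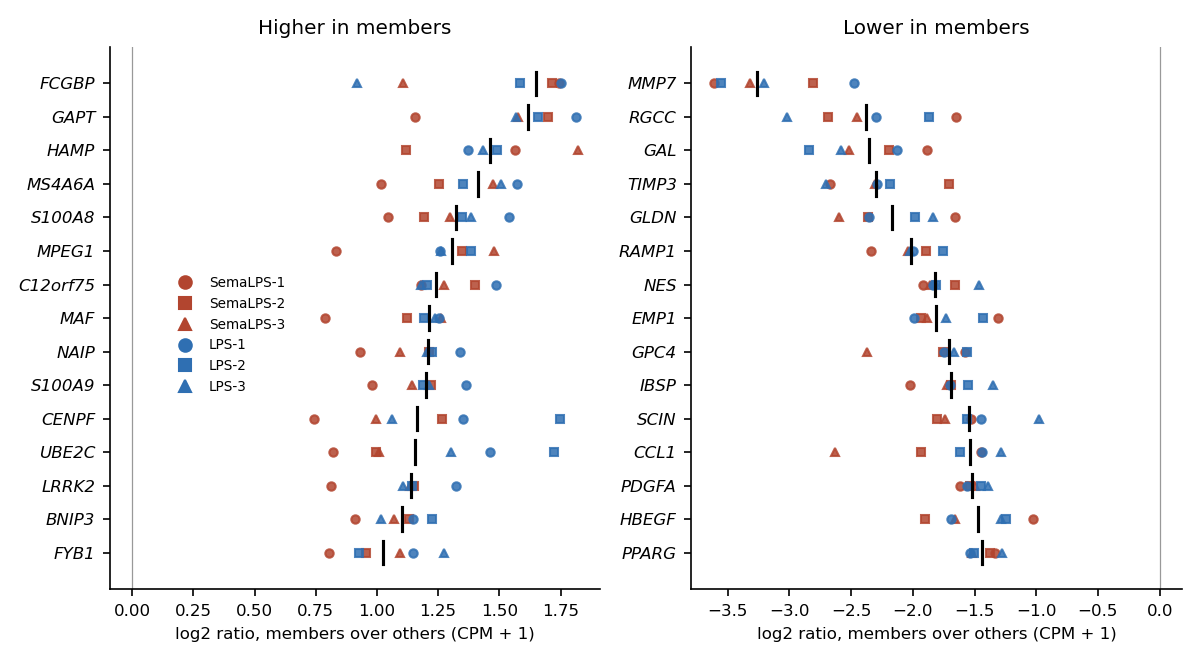
Log2 ratio of members over other cells, on CPM + 1 (x axis), for the 15 genes highest and the 15 lowest in members among those more than 1.5-fold apart in all 6 cultures; each point is a culture and each black bar the median. The medians run from 1.65 for FCGBP to 1.02 for FYB1 on the left and from −3.27 for MMP7 to −1.44 for PPARG on the right.

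Monocyte and microglial genes were both read as lists, to check the name the cells were given. All genes higher in members in 6 of 6 cultures made up 21.8% of those measured and genes lower in all 6 made up 20.4%, and list counts are read beside these. Of 15 measured classical monocyte genes, 7 were higher in all 6 cultures and 1 lower, with a median log2 ratio of 0.30 against −0.00 over all genes. The summed level of that list was 2050 to 2413 CPM in members, 1120 to 1287 CPM in the other cells and 721 to 783 CPM in Ctrl cells, and the defining gene CCR2 was under 1 CPM. CD14 had 203, 224 and 243 CPM in members and 118, 132 and 156 CPM in the other cells (0.78), whereas VCAN, another monocyte gene, was lower in 5 of 6 cultures (−0.75). Of 20 measured microglial genes, 13 were higher in all 6 cultures and 2 lower, with a median of 0.31, a sum of 6537 to 7157 CPM in members and 4733 to 5227 CPM in the other cells, and SALL1 under 1 CPM. Of 10 non-classical monocyte genes, 6 were higher in all 6 cultures and 3 lower, with a median of 0.42 and a sum of 667 to 694 CPM in members, 515 to 570 CPM in the other cells and 511 to 531 CPM in Ctrl cells. The name monocyte-like is thus borne out in part only, since the medians of both monocyte lists and of the microglial list were above that of all genes. The non-classical list holds LILRB1, LILRA1 and LILRA5, kin of the rule gene LILRB2 that may share reads with it. Their part in that list's median was not tested.

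Among the microglial genes, C1QA, a chain of complement C1q, had 718, 752 and 832 CPM in members and 395, 407 and 483 CPM in the other cells (0.88). AIF1 had a median of 1006 CPM in members and 548 CPM in the other cells (0.84), OLFML3 had a ratio of 0.83, the purinergic receptor P2RY13 of 0.82 and the fractalkine receptor CX3CR1 of 0.49. The 2 microglial genes lower in all 6 cultures were the purinergic receptor P2RY12, by little (−0.10), and TREM2, the lipid-sensing receptor of microglia. TREM2 had 201, 231 and 268 CPM in members, 315, 363 and 399 CPM in the other cells and 497 CPM in Ctrl cells (−0.64).

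Markers of other blood cells were mostly low. Of 10 lymphocyte genes, 7 were under 1 CPM and IL7R, which LPS-exposed macrophages also express, differed little, with a median of 320 CPM in members and 298 CPM in the other cells. NKG7, a cytotoxic granule gene, had a median of 25.3 CPM in members, 21.3 CPM in the other cells and a mean of 18.5 CPM in Ctrl cells. Of 12 dendritic cell genes, 4 were under 1 CPM (FCER1A, FLT3, CLEC9A and XCR1), and the list summed to 108 to 139 CPM in members, 119 to 147 CPM in the other cells and 56.4 to 66.5 CPM in Ctrl cells. Of its 8 measured genes, 4 were higher and 3 lower in all 6 cultures (median 0.09), and 1 was more than 1.5-fold higher in all 6. ELANE, MPO and PRTN3 of granulocyte precursors had no UMI. None of the mast cell or erythroid and megakaryocyte genes reached the level of a measured gene.

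The MHC class II list was higher in members throughout: 11 of 11 genes in all 6 cultures, with a median log2 ratio of 0.74. These genes present peptides to CD4+ T cells. HLA-DRA had 184, 214 and 313 CPM in members and 92.3, 114 and 198 CPM in the other cells (0.83), so the ranges overlapped across cultures although members were higher in each. HLA-DQB1 had a ratio of 0.94, HLA-DMB, which loads peptide, of 0.91 and the invariant chain CD74 of 0.50. The leukocyte immunoglobulin-like receptors, which share a gene cluster with LILRB2 on chromosome 19, were higher in 7 of 9 genes in all 6 cultures (median 0.72), LILRB1 among them with a median of 14.7 CPM in members and 6.15 CPM in the other cells (1.10). These receptors are near-identical in parts, and reads may be shared among them.

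Cell cycle RNA was also higher in members. All 13 measured G2 and M phase genes were higher in members in 6 of 6 cultures (median 0.84), and 8 of 12 S phase genes (0.32). TOP2A, which untangles DNA, had 63.0, 71.0 and 84.96 CPM in members and 18.8, 33.6 and 59.9 CPM in the other cells (1.07). The ubiquitin enzyme UBE2C of mitotic exit had 47.8, 52.4 and 67.1 CPM in members and 14.3, 23.0 and 37.6 CPM in the other cells (1.16). The share of cells with UMIs of at least 3 cycle genes was closer: 30.9, 24.4 and 30.6% of members and 30.4, 25.95 and 28.4% of the other cells in SemaLPS-1, -2 and -3, and 32.9, 28.8 and 28.9% of members and 24.9, 23.0 and 27.6% of the other cells in LPS-1, -2 and -3. The part of cycling cells in the other differences was not tested. Without cycling cells, 231 of the 303 genes were still more than 1.5-fold apart in all 6 cultures.

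Inflammatory genes were transcribed in members and in the other cells, at unequal levels. Among cytokine genes, IL1B had a median of 1518 CPM in members and 1980 CPM in the other cells, against 110 CPM in Ctrl cells, a ratio of −0.34. TNF had 87.0, 131 and 141 CPM in members and 110, 176 and 212 CPM in the other cells (−0.41), and CXCL8, the neutrophil attractant, was slightly higher (0.18). IL12B (−1.33) and IL23A (−1.03), subunits of IL-12 and IL-23, were lower in members in all 6 cultures, and the restraining cytokine IL10 was higher, with 3.58, 3.72 and 5.02 CPM in members and 0.904, 1.27 and 2.33 CPM in the other cells (1.11). Of 9 measured inflammatory cytokines, 2 were higher and 4 lower in all 6 cultures (median −0.29).

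Chemokine genes differed in both directions. CXCL10, an interferon-induced attractant of T cells, had 30.1, 58.5 and 67.5 CPM in members and 14.99, 24.7 and 34.5 CPM in the other cells (0.97), and 4 of 9 CXC chemokines were higher in all 6 cultures and 1 lower. The monocyte attractants CCL2 (688, 1108 and 1187 CPM in members, 441, 672 and 783 CPM in the other cells, 0.65) and CCL8 (0.95) were higher, while CCL1 was lower, and of 12 CC chemokines 2 were higher and 6 lower in all 6 cultures. Interferon-stimulated genes differed little as a list, with 6 of 26 higher and 1 lower in all 6 cultures (median 0.17). TNFSF10, the death ligand TRAIL, had a ratio of 1.23.

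Sensing and signalling genes also differed in both directions. TLR4 had 101, 110 and 115 CPM in members and 69.2, 74.2 and 78.0 CPM in the other cells (0.55), and 4 of 10 measured genes of the TLR4 complex were higher and 1 lower in all 6 cultures. Of 11 genes of the TIFA and TRAF6 route that TIFAB acts on, 3 were higher and 5 lower in all 6 cultures (median −0.11), and none was 1.5-fold apart in all 6. Of 6 Fc receptor genes, 5 were higher and 1 lower in all 6 cultures, with a median of 0.35. Of 12 measured chemoattractant and resolution receptor genes, 4 were higher and 6 lower in all 6 cultures (median −0.12). C5AR1, the receptor for complement C5a, was lower, with 35.5, 48.2 and 67.4 CPM in members and 88.6, 111 and 151 CPM in the other cells (−1.13).

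Lipid-associated genes were lower in members as a list. Of 18 genes, 14 were lower and 0 higher in all 6 cultures, with a median of −0.41. LPL, lipoprotein lipase, had 104, 115 and 142 CPM in members and 187, 242 and 270 CPM in the other cells (−0.99). LIPA, the lysosomal acid lipase, had a ratio of −0.77, the integrin ITGAX of −1.06 and the secreted phosphoprotein SPP1 of −0.60. CD9, a tetraspanin, had 619, 714 and 900 CPM in members, 1363, 1646 and 1889 CPM in the other cells and 1805 CPM in Ctrl cells (−1.17).

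Growth factors followed the same direction, with 8 of 12 lower and 1 higher in all 6 cultures (median −0.83). PDGFA had 22.1, 26.4 and 29.9 CPM in members and 68.2, 73.4 and 88.02 CPM in the other cells (−1.52), and HBEGF had a ratio of −1.47. CSF1, the ligand of the receptor that microglia need to survive, had 2.08, 2.82 and 4.31 CPM in members and 8.33, 13.4 and 15.3 CPM in the other cells (−1.78). Of 16 measured immediate-early and heat shock genes, 11 were lower and 3 higher in all 6 cultures, among them EGR2 at −1.57. The 6 γ-secretase genes had a median ratio of 0.04, with PSEN2, a catalytic subunit, lower in members (a median of 5.75 CPM against 10.3 CPM in the other cells, −0.77). Of 10 Notch target genes, 6 were lower and 0 higher in all 6 cultures.

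**Figure D3:**
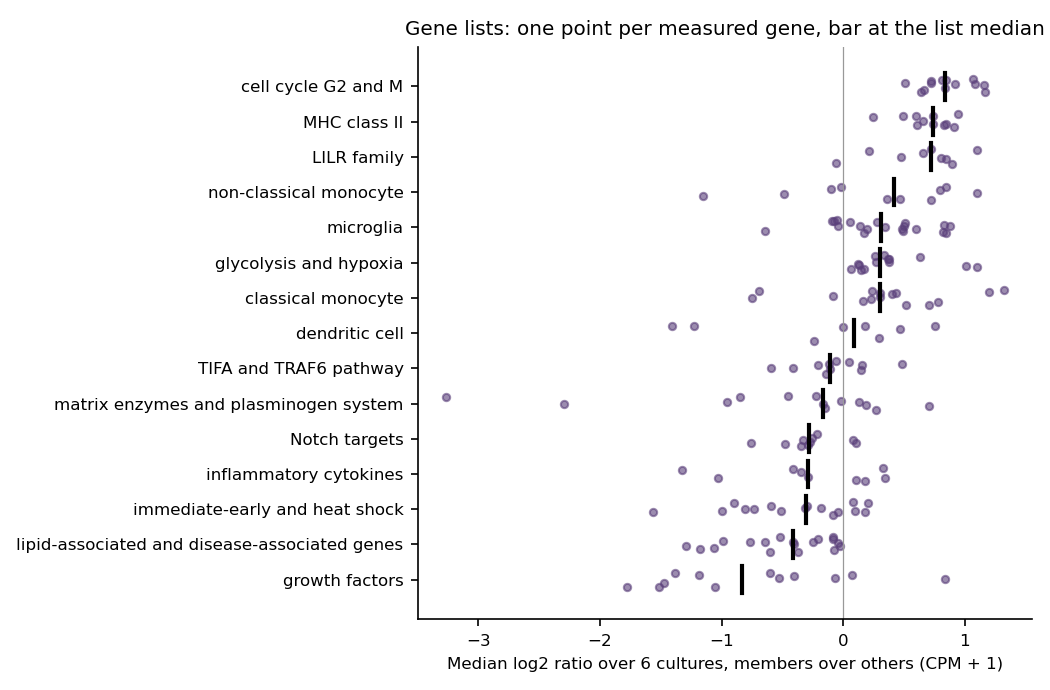
Median log2 ratio of members over other cells over 6 cultures, on CPM + 1 (x axis), for the measured genes of 15 of the gene lists; each point is a gene, each black bar the list's median, and the grey line marks 0. G2 and M genes (0.84), MHC class II genes (0.74) and LILR genes (0.72) lie furthest to the right, and growth factors (−0.83) and lipid-associated genes (−0.41) to the left.

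Levels changed by degrees along the score, given here as CPM without TMM scaling. From scores of −7 to −3 up to scores of 5 to 7, the median of S100A9 over the 6 cultures ran from 219 to 1631 CPM, that of C1QA from 290 to 866 CPM and that of CD9 from 2112 to 501 CPM. MMP7 had a median of 655 CPM at the lowest scores, 236 CPM at a score of 1, 74.9 CPM at 2 and 10.5 CPM at the highest. HLA-DRA ran from 82.1 to 281 CPM and MKI67 from 12.1 to 69.9 CPM, with wide ranges between cultures. These 6 genes were not used by the score.

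The score separated some of the same genes without LPS. In Ctrl cultures, cells with a score of 2 or more were compared with the remaining Ctrl cells, as a description. Levels and ratios of these Ctrl cells are on CPM without TMM scaling, unlike the ratios under LPS set beside them. CD9 had 1249 ± 188 CPM in scoring Ctrl cells and 2141 ± 261 CPM in the rest (SD, n = 3 each), a median log2 ratio of −0.77. MMP7 had a ratio of −3.17 and RGCC of −1.94, beside −3.27 and −2.38 under LPS. S100A9 had 236 ± 11.03 CPM in scoring Ctrl cells and 179 ± 10.6 CPM in the rest (SD, n = 3 each), a ratio of 0.34 beside 1.1996 under LPS, and S100A8 had 0.27 beside 1.32. These differences between ratios were not tested. C1QA had a ratio of 0.41.

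The inhibitor was then read within members, SemaLPS against LPS, by the quasi-likelihood test of edgeR over summed counts of 3 cultures each, with p-values adjusted over all genes after Benjamini and Hochberg. Of 13002 genes, 2 passed an adjusted p of 0.05 (0.0154%), and both fell. DUSP1, the phosphatase that switches off p38 and JNK kinases, had 29.6, 29.1 and 25.7 CPM in SemaLPS members and 44.9, 45.7 and 43.8 CPM in LPS members, a log2 fold change of −0.66 (SE 0.0652, adjusted p = 0.00342). IL1RN, the secreted antagonist of the IL-1 receptor, had 165, 163 and 159 CPM in SemaLPS members and 234, 204 and 242 CPM in LPS members, a log2 fold change of −0.48 (SE 0.0612, adjusted p = 0.0287). Every SemaLPS culture was below every LPS culture for both genes. DUSP1 no longer passed in cells thinned before scoring or in library 2 alone, and IL1RN passed in 10 of 21 alternatives.

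Cultures with the same replicate number varied together, and a fit with the number as a block made many more calls. In that fit 118 genes passed (0.908%), 53 higher (0.408%) and 65 lower (0.5%) with semagacestat, by the same edgeR test and adjustment; none but DUSP1 and IL1RN passed without the block. DUSP1 (adjusted p = 1.75e-05) and IL1RN (adjusted p = 5.45e-05) were among them. IBSP had 23.4, 26.7 and 42.5 CPM in SemaLPS members and 44.1, 63.1 and 73.4 CPM in LPS members, a log2 fold change of −0.97 (adjusted p = 7.1e-06 with the block, 0.543 without). No SemaLPS culture reached the lowest LPS culture. IL1B itself fell, with 1457, 1381 and 1333 CPM in SemaLPS members and 2004, 1578 and 1628 CPM in LPS members (−0.31, adjusted p = 0.000664).

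Other falls under the block, at 20 CPM or more, were picked by size, S100A8 apart. DUSP6, an ERK phosphatase, fell by 0.38 on the log2 scale and TNFRSF1B, the TNF receptor 2, by 0.37. CLEC5A, a DAP12-coupled lectin receptor, fell by 0.41, the podosome scaffold SH3PXD2B by 0.51, CREM, a cAMP-responsive factor, by 0.37 and the amino acid transporter SLC16A10 by 0.46. The metal-binding MT2A had 54.5, 69.3 and 71.3 CPM in SemaLPS members and 75.8, 81.0 and 140 CPM in LPS members (−0.56). CREM, SLC16A10 and MT2A did not pass with DESeq2 and the same block. S100A8 fell by a small amount, with 315, 359 and 352 CPM in SemaLPS members and 352, 427 and 400 CPM in LPS members (−0.19, adjusted p = 0.00277 in the blocked edgeR fit).

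Genes that rose under the block were led by BIN1, an endocytic membrane-shaping protein at an Alzheimer risk locus, with 39.2, 32.7 and 27.2 CPM in SemaLPS members and 28.8, 22.9 and 19.2 CPM in LPS members (0.49, adjusted p = 0.000623). TYMS, which makes thymidylate, rose by 0.44 and CCL2 by 0.38, with 1187, 1132 and 1171 CPM in SemaLPS members and 1083, 952 and 688 CPM in LPS members. TMEM97 and ERG28, both tied to sterol handling, rose by 0.36 and 0.32, GAL3ST4 and HIST1H1C each by 0.34, CH25H, which makes 25-hydroxycholesterol, by 0.31, the inositol transporter SLC5A3 by 0.31 and LTC4S, leukotriene C4 synthase, by 0.30. These are the 10 largest rises among genes of at least 20 CPM. With DESeq2 and the same block, BIN1 and TMEM97 passed and the other 8 did not.

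By list, in the fit with the block, 6 of 11 MHC class II genes rose (HLA-DRA, HLA-DRB1, HLA-DQA1, HLA-DQB1, HLA-DMA and CD74) and 0 fell. Of all genes in that fit, 0.408% passed as rises and 0.5% as falls, and the list counts are read beside these. The MHC class II list had a median log2 fold change of 0.20 against 0.00 over all genes. HLA-DRA had 313, 216 and 213 CPM in SemaLPS members and 285, 184 and 186 CPM in LPS members (0.19, adjusted p = 0.00949), a change smaller than the spread among the cultures of a group. Of 18 lipid-associated genes, 5 fell (SPP1, LPL, CD9, LIPA and TREM2), and TREM2, itself a γ-secretase substrate, had 200.5, 226 and 237 CPM in SemaLPS members and 219, 246 and 268 CPM in LPS members (−0.14, adjusted p = 0.0377 in the blocked edgeR fit). Of 13 cholesterol synthesis genes 3 rose (HMGCS1, FDPS and DHCR7), and of 10 metallothioneins 3 fell. Of 26 interferon-stimulated genes 2 fell, with a list median of −0.44. No such list call was made without the block. With DESeq2 and the same block, 7 of 13002 genes rose in members, BIN1 and TMEM97 among them. The 6 MHC class II genes thus cannot all have passed there.

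Genes of γ-secretase, its substrates and Notch signalling were read next. None of 6 γ-secretase genes passed in either fit, and PSENEN had 70.1, 70.3 and 76.8 CPM in SemaLPS members and 74.9, 72.9 and 82.5 CPM in LPS members. Of 19 γ-secretase substrates, 2 fell under the block, TREM2 and CDH1, beside 0.5% of all genes. CDH1, E-cadherin, had 24.7, 24.3 and 28.8 CPM in SemaLPS members and 32.1, 27.4 and 35.5 CPM in LPS members (−0.29). Of 9 Notch targets, 1, HES1, fell under the block, with 0.944, 1.08 and 0.976 CPM in SemaLPS members and 1.98, 2.02 and 2.46 CPM in LPS members, a log2 fold change of −1.09 (adjusted p = 0.0342 with the block, 0.431 without). The 14 rule genes were not compared within members, whose levels of these genes the score fixes in part.

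The same comparison was made in the other cells, and the difference between both was tested. In the other cells 0 of 13626 genes passed edgeR's test (0.0%), with 657 genes at an unadjusted p under 0.05 and 6 genes by DESeq2, and 69 passed with the block (0.506%), of which 49 rose (0.36%) and 20 fell (0.147%). In all LPS-exposed cells together 0 of 14661 genes passed (0.0%), with 723 at an unadjusted p under 0.05 and 20 by DESeq2, and 142 passed with the block (0.969%), 97 that rose (0.662%) and 45 that fell (0.307%). The blocked calls in members and in the other cells shared 27 genes, 22.9% of those in members and 39.1% of those in the other cells, and all 27 had the same sign. DUSP1 had 39.5, 45.5 and 37.0 CPM in SemaLPS other cells and 52.2, 47.3 and 48.9 CPM in LPS other cells (−0.28, adjusted p = 0.997, and 0.148 with the block, by edgeR's quasi-likelihood test). Its difference of change between members and other cells was −0.39 (adjusted p = 0.0707), so a larger fall in members did not pass. Of 13925 genes, 1 passed the test of that difference (0.00718%), and 2 with the block (0.0144%). The 1 gene was UBE2C, with a difference of −0.57 (SE 0.0890, adjusted p = 0.0480 by edgeR's quasi-likelihood test), and the block added HLA-DQA1, with −0.67 (SE 0.0928, adjusted p = 0.0424 with the block and 0.478 without).

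**Figure D4:**
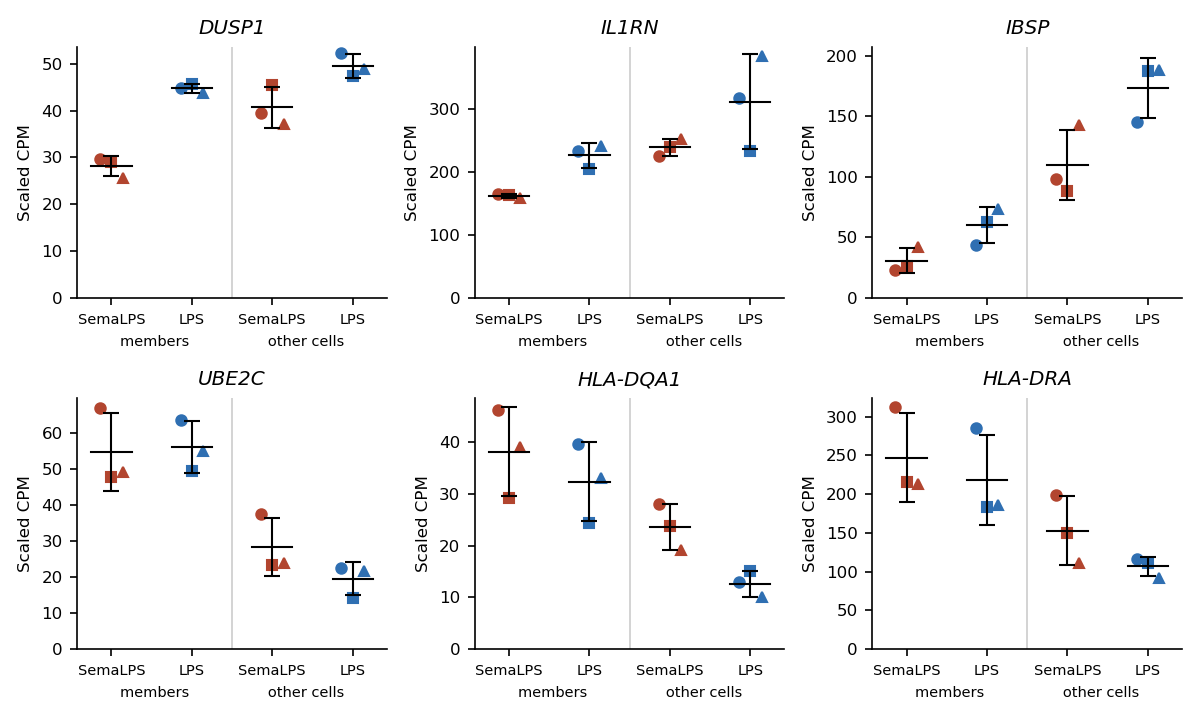
TMM-scaled CPM (y axis, from 0) of 6 genes in members and in other cells, SemaLPS left of LPS in each; points are cultures, with circles, squares and triangles for replicates 1, 2 and 3, and lines are the mean and SD of 3 cultures. In members DUSP1 lies at 25.7 to 29.6 CPM with SemaLPS and 43.8 to 45.7 CPM with LPS, and IL1RN at 159 to 165 CPM with SemaLPS and 204 to 242 CPM with LPS.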

How the data were processed

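The files deposited by the authors hold whole UMI counts of genes and hashtags for every called barcode, raw per the file headers, which name Cell Ranger 6.0.1. The submitters' processing notes name Cell Ranger 3.0.2, Seurat 4.1.1 and the build hg38, and no source used here names the annotation. Genes were placed with GENCODE v29 on GRCh38 (94.6% of 36601 IDs matched).

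Cells were assigned and filtered by the score's rule. No doublet caller was run: the hashtag ratio removes doublets between cultures, not within one. Counts were summed per culture and class and tested with edgeR 4.0.16 (TMM scaling, low-count filter, quasi-likelihood) in R 4.3.3, with DESeq2 1.42.0 as an alternative. The difference of effects was fitted with culture as a block. The fits were also run on simulated counts, and the outcome is not reported here. Clusters (scanpy 1.11.5, Leiden, resolution 0.5, 2000 variable genes, 30 components, 15 neighbours) were added after seeing the data.

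Replicate numbers come from the hashtag labels, which do not say what they mark. In members, deviations of same-numbered cultures from the condition mean correlated at 0.443 to 0.567 over 5009 genes, and those of other pairs at −0.333 to −0.153. Deviations within a condition cancel out, so positive values for same-numbered pairs pull the other pairs negative. In the other cells, same-numbered cultures correlated at 0.250 to 0.470 over 5076 genes. The numbers were taken to pair cultures. The members, the 48 gene lists and the tests were chosen with earlier results of these data known. Genes named were the 15 highest and 15 lowest ratios among genes over 1.5-fold apart in all 6 cultures with at least 20 CPM in the higher class, up to 3 genes of each list by ratio, and for semagacestat the 10 largest rises and falls that passed at 20 CPM with up to 3 genes each of the γ-secretase, substrate and Notch target lists. Other genes given were picked from the lists after their values were seen.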

Additional observations from a re-analysis of the deposited data

Results flagged for a closer look

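The effect of semagacestat differed between members and other cells for UBE2C, a mitotic ubiquitin enzyme, by the test of the difference itself (−0.57 on the log2 scale, adjusted p = 0.0480 by edgeR's quasi-likelihood test, and −0.58, adjusted p = 0.0424, with the replicate block). UBE2C had 67.1, 47.8 and 49.1 CPM in SemaLPS members and 63.8, 49.6 and 55.2 CPM in LPS members, against 37.6, 23.4 and 23.9 CPM in SemaLPS other cells and 22.5, 14.3 and 21.8 CPM in LPS other cells. It passed in 8 of 20 alternatives. It did not pass in library 1 or library 2 alone, with a score of at least 3, with DESeq2, or on leaving out LPS-1, LPS-2, SemaLPS-1 or SemaLPS-2, and without cycling cells its sign turned (0.30). Cells with cycle genes made up 30.4, 25.95 and 28.4% of SemaLPS other cells and 24.9, 23.0 and 27.6% of LPS other cells, and their part was not tested; UBE2C is itself among the genes that define those cells.

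HLA-DQA1, an MHC class II chain, passed the same test with the replicate block (−0.67, adjusted p = 0.0424 by edgeR's quasi-likelihood test) and in 2 of 20 alternatives in all, the block included, and its sign turned in thinned cells (0.088). It had 46.3, 29.2 and 39.1 CPM in SemaLPS members and 39.6, 24.5 and 33.2 CPM in LPS members, against 28.1, 23.8 and 19.1 CPM in SemaLPS other cells and 12.9, 15.03 and 10.03 CPM in LPS other cells. Its reads can be shared with the near-identical HLA-DQA2.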

How the results depend on the processing

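The higher share of members in SemaLPS cultures kept its direction in all 31 alternatives run, none of which could reach a p of 0.05, at 3.55 to 9.79 points; 14 of them left out 1 rule gene and, like the setting without cycling cells, were added after seeing the data. The 2 calls in members became 4 with a score of at least 3, 1 at up to 20% mitochondrial UMIs, 1 in thinned cells, 1 in library 2 alone, 1 with a hashtag ratio of 2 or of 5, 1 without cycling cells, 156 with no filter, 118 with the replicate block, 4 with DESeq2, 22 with DESeq2 and the block, and 1 to 3 on leaving out 1 culture. The 0 calls in the other cells became 1 with a score of at least 3, 6 with DESeq2, 98 with no filter, 69 with the replicate block and 0 to 1 on leaving out 1 culture. The 1 differing effect became 14 with a score of at least 1, 29 in thinned cells, 4 in library 1, 2 in library 2, 91 with no filter, 2 with the replicate block, 6 with a hashtag ratio of 2, 0 with a ratio of 5, up to 20% mitochondrial UMIs, no cycling cells, DESeq2 or its size factors, and 0 to 14 on leaving out 1 culture. In all LPS-exposed cells together, added after seeing the data, the 0 calls became 20 with DESeq2, 109 with DESeq2 and the block, 25 with no filter and 142 with the replicate block. The 303 genes over 1.5-fold apart became 201 in thinned cells and 148 with 5 CPM added, and leaving out TMM scaling gave 78 higher and 216 lower. The UBE2C difference was 0.30 without cycling cells, which UBE2C helps to define, and that of HLA-DQA1 was 0.088 in thinned cells; the cause was not tested for HLA-DQA1. HES1 lay near 1 CPM in SemaLPS members, and the part of depth in such low values was not tested.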
